A study of Drosophila melanogaster with 3 samples.

Results

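The Enhancer of split complex is a run of Notch target genes on arm 3R of Drosophila melanogaster. The 9 members described here are given by name and comprise 7 genes of basic helix-loop-helix (bHLH) repressors, E(spl)mdelta-HLH, E(spl)mgamma-HLH, E(spl)mbeta-HLH, E(spl)m3-HLH, E(spl)m5-HLH, E(spl)m7-HLH and E(spl)m8-HLH, and 2 genes of the Bearded family, E(spl)malpha-BFM and E(spl)m4-BFM. All 9 were found in the Ensembl BDGP6 annotation, out of 13945 protein-coding genes on the 6 main arms, each with 1 transcription start site (TSS). The list leaves out 4 other genes of the same run, Kaz-m1, E(spl)m2-BFM, E(spl)m6-BFM and gro, which are given beside the members.

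When a Notch receptor is activated, its intracellular part joins the DNA-binding protein Suppressor of Hairless, Su(H), and switches these genes on. The bHLH proteins then recruit the corepressor Groucho, the product of gro, and hold down proneural genes, so that a cell beside a future neural precursor does not become one itself. Bearded family proteins restrain the ubiquitin ligase Neuralized and so dampen signalling by the ligand Delta. In mouse, Prdm13 is a repressor of neuronal fate genes in the dorsal neural tube, where bHLH factors direct neuronal identity.

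The measurement was chromatin immunoprecipitation sequencing (ChIP-seq) of CG13296, annotated as the fly Prdm13 gene, through a green fluorescent protein (GFP) fused to its C terminus in a stable transgenic line. The single group held 3 biological replicates of whole embryos of mixed sex aged 6 to 18 hours, a mixture of all embryonic cell types, and no untagged or other genotype was part of it. What drives the transgene, and whether the line keeps its own CG13296, is not stated in the labels. The libraries' free-text description calls them input, whereas the assay, the target and the deposited derivation records place them on the immunoprecipitated side against 1 shared control file. With 1 group there is no contrast between conditions, so the values below are positions and ranks, with the share of all protein-coding genes as background.

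Each relaxed peak list, 1 per replicate and 1 for the pooled replicates, held 30000 peaks, and 5724 pooled peaks passed the authors' irreproducible discovery rate (IDR) threshold. Read numbers were not given, so depth is unknown. The summit is the base of highest enrichment in a peak, and rank 1 is the highest deposited signal value in a list. Distances are from a TSS to a summit, negative upstream, and 500 bp is the limit for a promoter summit. Coordinates are on build dm6.

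The tagged protein was placed at the promoters of 2 of the 9 members, E(spl)m3-HLH and E(spl)m7-HLH, in the IDR set. That is 22.2% of the members, against 23.3% of all protein-coding genes, so the share was close to the background. A further 2 members, E(spl)mdelta-HLH and E(spl)mbeta-HLH, had promoter summits below the IDR threshold, in the pooled list and in each of the 3 replicate lists. The other 5, E(spl)mgamma-HLH, E(spl)malpha-BFM, E(spl)m4-BFM, E(spl)m5-HLH and E(spl)m8-HLH, had no summit within 500 bp of the TSS in the pooled list or in any of the 3 replicate lists. Both Bearded family members were in this last class.

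The bases around the summits of the 4 members with promoter summits are printed to show where the summits lie. Each run covers 100 bp on each side of the pooled summit of highest signal, from the release 6 genome, 5′ to 3′ in the direction of the gene. Capitals mark the letters of a Su(H) site (GTGGGAA or GTGAGAA), an E box (CANNTG, the class of site read by bHLH proteins) or a TATA box (TATAAA), on either strand.
E(spl)m3-HLH, chr3R:26021307-26021507, plus strand: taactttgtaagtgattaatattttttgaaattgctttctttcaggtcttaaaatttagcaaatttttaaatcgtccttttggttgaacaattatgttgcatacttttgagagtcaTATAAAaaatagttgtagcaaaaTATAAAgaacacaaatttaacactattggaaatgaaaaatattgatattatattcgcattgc
E(spl)m7-HLH, chr3R:26036618-26036818, plus strand: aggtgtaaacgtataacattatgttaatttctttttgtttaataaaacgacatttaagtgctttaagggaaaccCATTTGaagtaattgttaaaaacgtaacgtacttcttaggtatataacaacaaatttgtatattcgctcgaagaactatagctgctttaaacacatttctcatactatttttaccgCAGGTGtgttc
E(spl)mdelta-HLH, chr3R:25997164-25997364, plus strand: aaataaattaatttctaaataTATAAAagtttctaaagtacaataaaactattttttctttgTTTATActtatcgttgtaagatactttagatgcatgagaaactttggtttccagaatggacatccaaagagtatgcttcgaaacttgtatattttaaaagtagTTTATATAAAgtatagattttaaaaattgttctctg
E(spl)mbeta-HLH, chr3R:26006214-26006414, minus strand: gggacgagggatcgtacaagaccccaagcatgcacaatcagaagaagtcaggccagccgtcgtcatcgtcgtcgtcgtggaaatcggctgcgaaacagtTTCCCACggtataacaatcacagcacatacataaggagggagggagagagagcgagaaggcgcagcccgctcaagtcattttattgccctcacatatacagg

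The windows of E(spl)m3-HLH and E(spl)mdelta-HLH were 23.9% and 22.9% G and C, with no E box and no Su(H) site. They held 2 and 4 matches to TATAAA, in windows centred 416 and 357 bp upstream of the TSS. Of all IDR windows, 35.4% held such a match. That of E(spl)m7-HLH was 29.9% G and C and held 2 E boxes, one of them CAGGTG. That of E(spl)mbeta-HLH stood apart at 53.2% G and C, with a Su(H) site. This gene had another pooled summit, of lower signal, at -45 bp. The window there was 58.7% G and C and held no Su(H) site, 1 E box and 1 match to TATAAA. Across all 5724 IDR summits the median window was 36.3% G and C, with quartiles at 30.8% and 42.3%.

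E(spl)m3-HLH (FBgn0002609), which encodes a bHLH repressor, had the highest pooled signal of the complex. Its summit lay 416 bp upstream of the TSS (peak at 3R, 26021165 to 26021628) and ranked 684 in the pooled list. In replicates 1, 2 and 3 the rank was 1210, 1144 and 330, with summits at -384, -392 and -408 bp. All 3 replicates therefore placed it in the leading 5724 peaks, and their summits fell within 24 bp of each other. The peak in gro, below, ranked higher than it in replicates 1 and 2. The non-coding gene lncRNA:CR43644 starts on the opposite strand, and the same summit is 331 bp upstream of it, so the peak cannot be given to E(spl)m3-HLH alone.

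E(spl)m7-HLH (FBgn0002633), another of the bHLH repressors, had a summit 320 bp upstream of its TSS (peak at 3R, 26036498 to 26036937), of pooled rank 3302. The rank was 4915, 4486 and 2469 in replicates 1, 2 and 3, at -350, -320 and -399 bp. As at E(spl)m3-HLH, replicate 3 gave the highest rank and all 3 replicates lay inside the leading 5724. No other TSS was nearer to this summit.

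E(spl)mdelta-HLH (FBgn0002734), a bHLH repressor gene that starts the run, was just outside the IDR set. Its summit at -357 bp had pooled rank 6377, where the set ends at 5724. The best ranks within 500 bp were 11933, 6189 and 5653 in replicates 1, 2 and 3. Replicate 3 alone placed it in its leading 5724 peaks. The divergent neighbour CG43116 is nearer, with the summit 268 bp upstream of its own TSS.

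E(spl)mbeta-HLH (FBgn0002733), a bHLH repressor gene, had 2 pooled summits at its promoter, at -291 bp (rank 7954) and at -45 bp (rank 11757). The replicates differed in which they listed. Replicate 1 had 1 summit at -44 bp with rank 6336, replicate 2 had 1 at -234 bp with rank 4405, and replicate 3 had 1 at -331 bp with rank 7445. The promoter was thus listed in each replicate, at positions 287 bp apart at the extremes, and replicate 2 alone had it in its leading 5724.

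**Figure D1:**
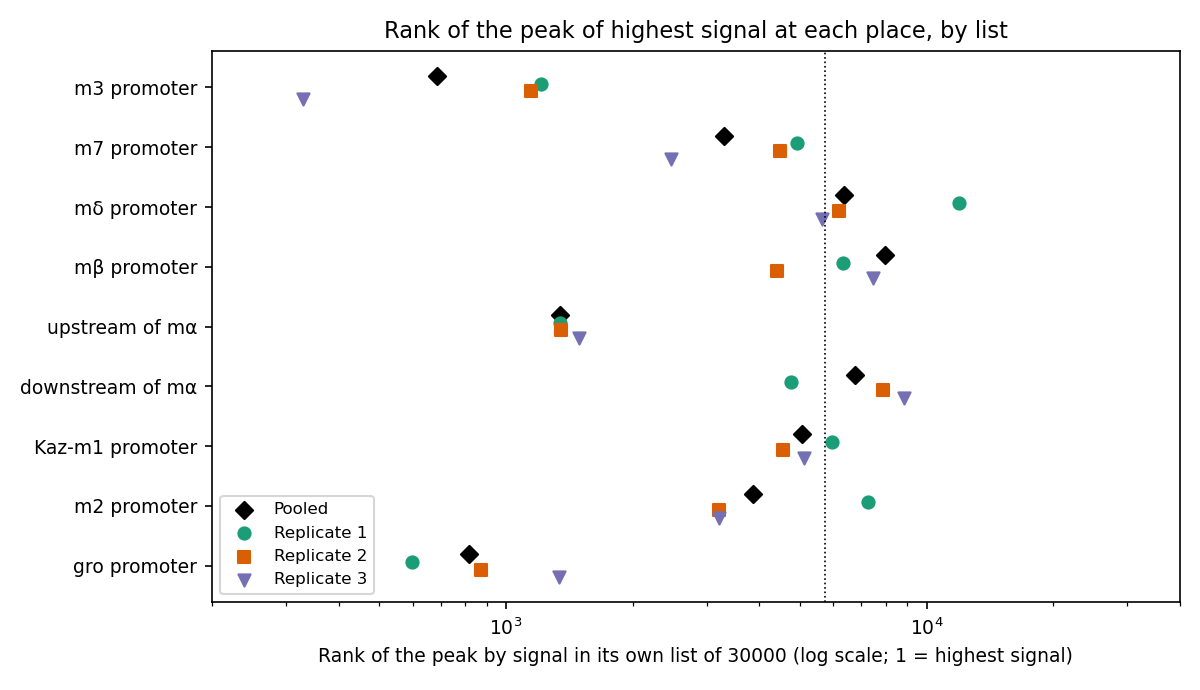
Rank of the peak of highest signal at each place (log axis, 1 is the highest of 30000) in the pooled list and in replicates 1 to 3; the dotted line marks rank 5724, and genes are labelled without E(spl) and family suffix. The E(spl)m3-HLH promoter ranks between 330 and 1210, the E(spl)m7-HLH promoter between 2469 and 4915, and the peak upstream of E(spl)malpha-BFM between 1344 and 1494, whereas E(spl)mdelta-HLH and E(spl)mbeta-HLH fall on both sides of the line.

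Among the members with no promoter summit, E(spl)malpha-BFM, a Bearded family gene, lay between a pair of sites. A peak of rank 1346 (3R, 26008968 to 26009240) had its summit 1748 bp upstream of its TSS, in the stretch between lncRNA:CR45039 and E(spl)malpha-BFM. It ranked 1344, 1352 and 1494 in replicates 1, 2 and 3, the closest agreement in rank of any IDR peak in the complex. A further summit lay 777 bp downstream of the TSS, past the 3′ end of the gene, with pooled rank 6745 and ranks of 4771, 7868 and 8817. The upstream site, the strongest of the complex away from promoters, reads as follows, with capitals as above.
Upstream of E(spl)malpha-BFM, chr3R:26009045-26009245, plus strand: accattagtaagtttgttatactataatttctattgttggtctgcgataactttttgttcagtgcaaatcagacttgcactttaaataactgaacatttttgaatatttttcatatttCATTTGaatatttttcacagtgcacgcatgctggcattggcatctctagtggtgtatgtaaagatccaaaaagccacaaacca

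The remaining 4 members were farther from any IDR summit than 1 kb. E(spl)m8-HLH, a bHLH repressor gene, had its nearest pooled summit 1381 bp downstream, which is the peak before gro. E(spl)mgamma-HLH had a pooled summit of rank 21005 at 1217 bp downstream. Replicate 3 listed it within 200 bp (rank 21584), and the nearest summit of replicate 1 was 984 bp downstream (rank 16533) and that of replicate 2 was 2384 bp upstream (rank 25238). E(spl)m4-BFM, of the Bearded family, was 3172 bp from its nearest pooled summit, that of the E(spl)m3-HLH promoter. E(spl)m5-HLH was the member farthest from a pooled summit, 5631 bp from one of rank 16471, and was 6983 bp from an IDR summit. E(spl)mgamma-HLH and E(spl)mdelta-HLH were farther from an IDR summit, 9294 and 11524 bp. Over the 9 members the median distance from the TSS to the nearest pooled summit was 777 bp, against 673 bp over all protein-coding genes taken at 1 TSS each. To the nearest IDR summit it was 3122 bp against 5806 bp.

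No summit lay inside a member. None of the 9 transcribed regions, 676 to 1305 bp long, held a summit in the IDR set, the pooled list or any of the 3 replicate lists. Few genes of this size did. Of the 2852 protein-coding genes of that length, 2.7% held an IDR summit, 10.9% a pooled summit, and 11.9%, 11.9% and 13.7% a summit of replicates 1, 2 and 3. The longest stretch of the complex with no summit in any of the 5 lists was 12.9 kb, from the E(spl)m3-HLH promoter peak to a summit of replicate 2 beyond E(spl)m6-BFM. It held the TSSs of E(spl)m3-HLH, E(spl)m4-BFM, E(spl)m5-HLH and E(spl)m6-BFM. Stretches at least this long made up 34.1% of the bases of the 6 arms. The next, of 4.90 kb, held the whole of E(spl)m7-HLH and E(spl)m8-HLH.

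**Figure D2:**
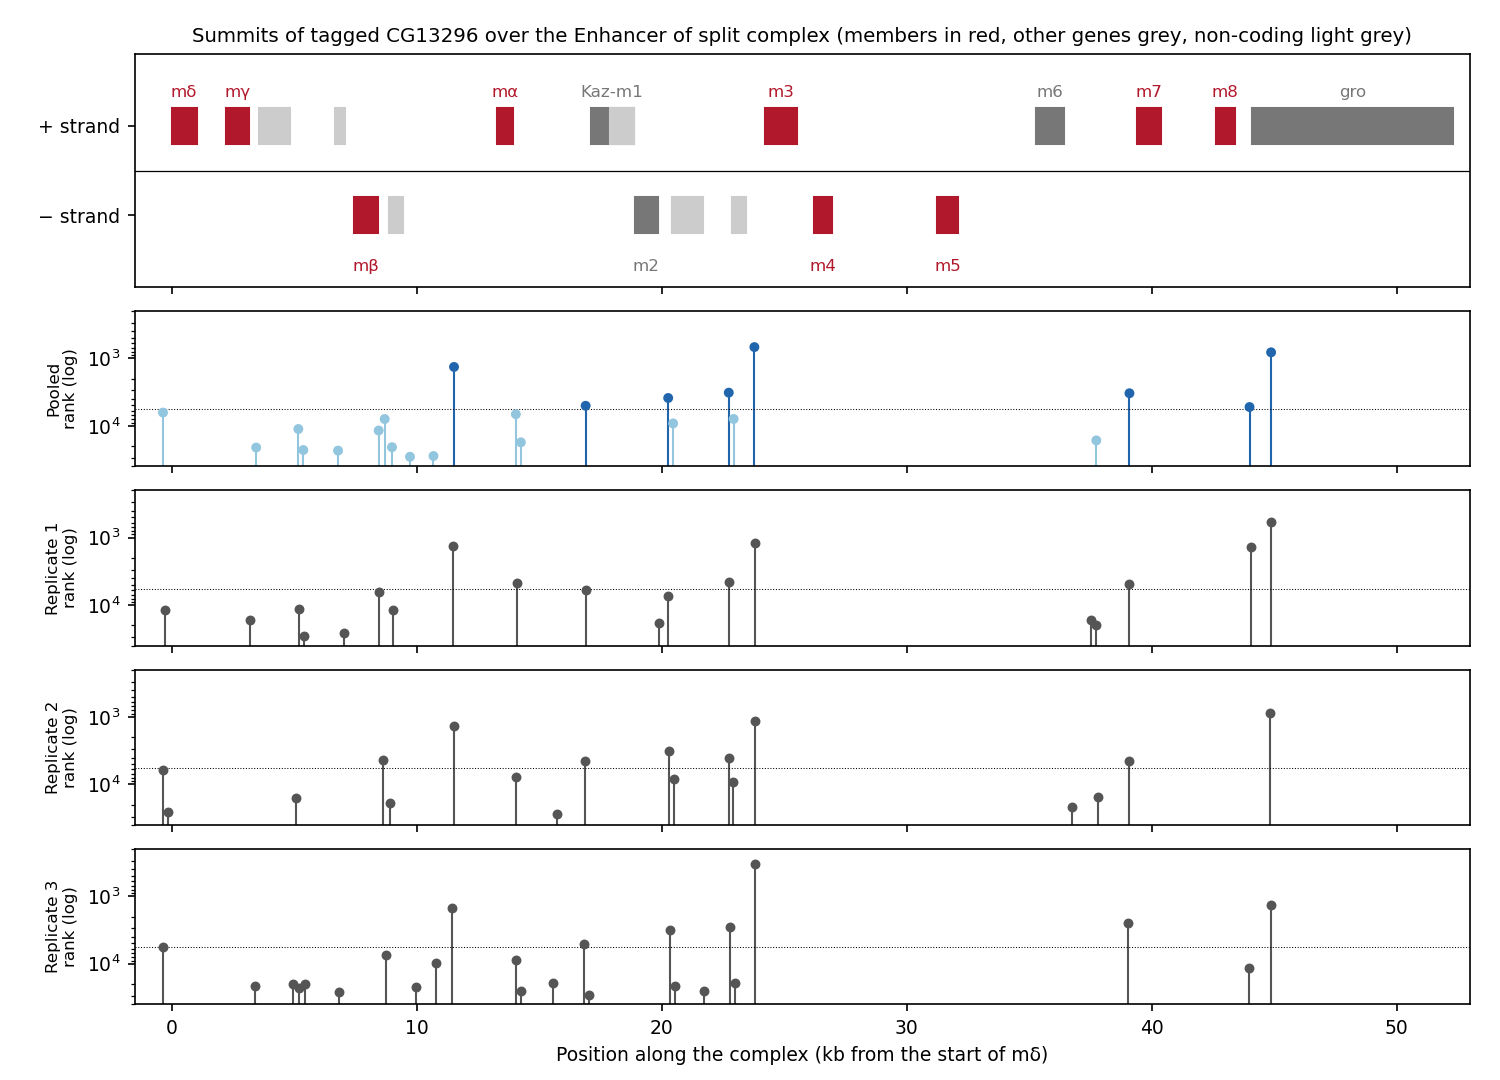
Genes of the complex on each strand (upper panel, kb from the start of E(spl)mdelta-HLH) and the rank of every summit in the pooled list and in replicates 1 to 3 (log axes, higher is stronger); dark blue points are the 8 IDR summits, light blue the other pooled summits, and the dotted line is rank 5724. The summits cluster between the genes from E(spl)mbeta-HLH to E(spl)m3-HLH and near E(spl)m7-HLH and gro, and the 12.9 kb over E(spl)m4-BFM, E(spl)m5-HLH and E(spl)m6-BFM hold none.

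The run from E(spl)mdelta-HLH to gro (3R, 25997621 to 26049911, 52.3 kb) held 8 IDR summits, 15.3 per 100 kb, where the 6 arms averaged 4.28 per 100 kb. The 8 became 7, 5 and 5 without replicates 1, 2 and 3, where the 5724 IDR peaks of all arms became 4088, 4197 and 4081. The pooled list had 22 summits over the run, 42.1 against 22.4 per 100 kb. The run is dense in genes, with 13 protein-coding genes, and per gene it held 0.615 IDR summits against 0.410 over the 6 arms, and 1.69 pooled summits against 2.15. The relaxed lists of replicates 1, 2 and 3 had 18, 16 and 23 summits over the run (mean 19 ± 3.61, SD, n = 3). Of the 8 IDR summits, 7 lay between genes and 1 in an intron of gro. Of the 22 pooled summits, 10 (45.5%) were listed within 200 bp in all 3 replicates, against 48.9% of all pooled peaks, and of the 8 IDR summits 7 (87.5%), against 96% of all IDR peaks. Only 2 of the 8 were at promoters of members, and the site upstream of E(spl)malpha-BFM and the 5 below make up the rest.

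Of the 4 other genes of the run, 3 had an IDR promoter summit, against 23.3% of all protein-coding genes. The count was 1, gro, without replicate 2, without replicate 3, among peaks supported in all 3 replicates and in the leading peaks of replicate 1. Of all protein-coding genes, 18.2%, 17.6%, 16% and 23.1% had a promoter summit in these sets, in that order. At gro, which encodes the corepressor, the summit of rank 818 lay 140 bp upstream of an internal TSS, 1 of its 4, and ranked 597, 873 and 1340 in replicates 1, 2 and 3. A weaker summit just upstream of the first TSS of gro, rank 5279, was uneven between libraries, with rank 1395 in replicate 1, none within 200 bp in replicate 2 and 11660 in replicate 3. E(spl)m2-BFM, a Bearded family gene, had a summit at -418 bp of rank 3877 (7246, 3217 and 3214 in the replicates). Kaz-m1, a gene of the complex that belongs to neither family, had one at -203 bp of rank 5057 (5971, 4548 and 5124). E(spl)m6-BFM had none. The last IDR summit, rank 3234, lay between lncRNA:CR43643 and lncRNA:CR43644, 1462 bp upstream of E(spl)m3-HLH, and ranked 4574, 4012 and 2891.

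The IDR promoter summits of the 2 members lay farther upstream than most, at -416 and -320 bp. Of all 3244 protein-coding genes with an IDR promoter summit, the nearest summit had a median of -108 bp, with quartiles at -197 and -12 bp, and 356 (11.0%) had it 300 to 500 bp upstream. With E(spl)m2-BFM at -418 bp, 3 of the 5 genes of the complex with an IDR promoter summit were in that range. With the limit for a promoter summit at 200 bp, 0 of the 9 members had one, against 17% of all protein-coding genes, and at 1000 bp 2 of 9, against 27.1%.

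**Figure D3:**
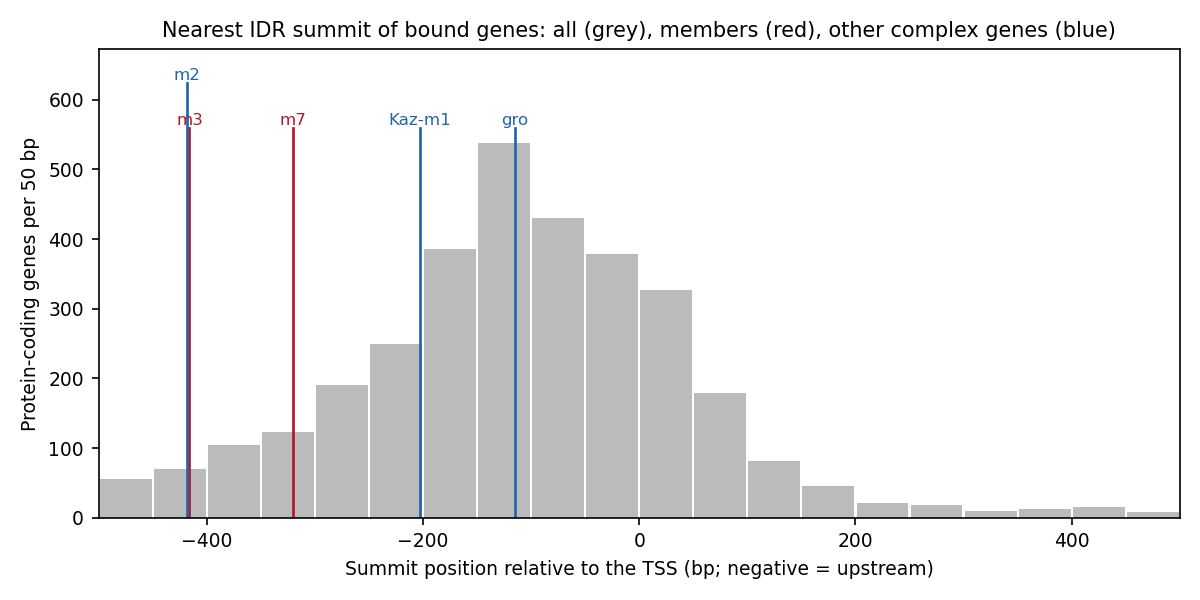
Position of the nearest IDR summit relative to the TSS (bp, negative upstream) for the 3244 protein-coding genes with one within 500 bp (grey bars, genes per 50 bp), with lines for the members E(spl)m3-HLH and E(spl)m7-HLH (red) and for E(spl)m2-BFM, Kaz-m1 and gro (blue). Both red lines lie upstream of the lower quartile of all genes, -197 bp.

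The count of members changed little between libraries. When each replicate's list was limited to its own leading 5724 peaks, replicate 1 placed 2 members at a promoter summit (E(spl)m3-HLH and E(spl)m7-HLH), replicate 2 placed 3 (with E(spl)mbeta-HLH) and replicate 3 placed 3 (with E(spl)mdelta-HLH), a mean of 2.67 ± 0.577 (SD, n = 3). The background was 23.1%, 23.1% and 23.7% of protein-coding genes. In the relaxed lists each replicate placed the same 4 of 9 members (44.4%), against 50.8%, 49.1% and 52.1% of protein-coding genes in replicates 1, 2 and 3. The pooled relaxed list gave 4 of 9 against 49.3%, and 4 of 9 were listed in all 3 replicates against 39.1%. In stricter sets the count was 1 of 9 (E(spl)m3-HLH) against 13.5% in the leading 2862 peaks of the IDR set, and 2 of 9 against 16% among IDR peaks supported in all 3 replicates' leading lists. It was 2 of 9 without replicate 1, 2 or 3, against 17.6%, 18.2% and 17.6%, and with 1 TSS per gene against 20.7%. The members, being neighbours, are not independent of each other.

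Among the 9 members, those without a promoter summit were those with the most Su(H) letters. Within 500 bp upstream of the TSS, E(spl)mgamma-HLH and E(spl)m4-BFM had 3 Su(H) sites, and E(spl)malpha-BFM, E(spl)m5-HLH and E(spl)m8-HLH had 2. These are the 5 members with no summit within 500 bp in the pooled list or in a replicate list. E(spl)mbeta-HLH, with summits below the IDR threshold, had 1, and E(spl)m3-HLH, E(spl)m7-HLH and E(spl)mdelta-HLH had none in this window. Outside the members the split did not hold throughout the run, where E(spl)m6-BFM had no Su(H) site and no summit within 500 bp in any list, with 50.8% G and C, while Kaz-m1, E(spl)m2-BFM and gro had no site and an IDR summit. Of all 13945 promoters at 1 TSS per gene, 10.2% held at least 1 such site and 0.66% held 2 or more. The split at 2 sites was made after the values were seen, and with 9 neighbouring genes it is a description. The letters TATAAA, on either strand and at any position, were within 500 bp upstream of 8 of the 9 members, against 61.6% of all promoters. The 8 included members with and without a summit. Of the members, E(spl)mgamma-HLH alone had none. Examples of promoters without a summit, 3 of the 5, are the 200 bp upstream of these TSSs, from the same genome and with the same capitals. Each of the 3 has a Su(H) site and a TATA box.
E(spl)m8-HLH, chr3R:26040040-26040239, plus strand: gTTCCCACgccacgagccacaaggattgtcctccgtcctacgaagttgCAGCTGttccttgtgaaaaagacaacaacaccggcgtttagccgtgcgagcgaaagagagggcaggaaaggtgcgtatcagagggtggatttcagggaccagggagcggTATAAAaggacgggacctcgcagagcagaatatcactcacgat
E(spl)m5-HLH, chr3R:26029736-26029935, minus strand: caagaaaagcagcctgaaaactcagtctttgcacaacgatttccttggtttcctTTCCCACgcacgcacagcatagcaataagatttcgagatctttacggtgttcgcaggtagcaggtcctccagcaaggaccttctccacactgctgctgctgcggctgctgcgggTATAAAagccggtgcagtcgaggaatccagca
E(spl)m4-BFM, chr3R:26024580-26024779, minus strand: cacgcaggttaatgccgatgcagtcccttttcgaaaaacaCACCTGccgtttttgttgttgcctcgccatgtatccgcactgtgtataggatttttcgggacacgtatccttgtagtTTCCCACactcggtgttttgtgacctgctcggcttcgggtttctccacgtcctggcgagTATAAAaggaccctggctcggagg

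Across the genome the share of promoters with a summit did not fall steadily with the number of Su(H) sites. A pooled summit lay within 500 bp of 46.7% of the 12522 promoters with no Su(H) site, 50.1% of the 1331 with 1 and 39.1% of the 87 with 2 or more once the members were left out. The IDR shares were 20.4%, 23.4% and 17.2%. Of those 87 promoters, 34 had a pooled summit and 15 an IDR summit, and the differences were not tested. Base composition moved with the members' split as well. The 500 bp upstream of the 5 members with no summit were 47.0% to 55.8% G and C, those of E(spl)m3-HLH, E(spl)m7-HLH and E(spl)mdelta-HLH were 41.8%, 39.6% and 38.8%, and that of E(spl)mbeta-HLH was 55.8%. Of the 3501 promoters with 43.6% or more G and C, which included 6 of the 9 members, 15% had an IDR summit, against 21.8% of the 3472 promoters between 38.4% and 43.4%, which included the other 3. For pooled summits, on which the members' split rests, the shares were 42% and 46.8%. The part of base composition in the members' split was not tested.

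**Figure D4:**
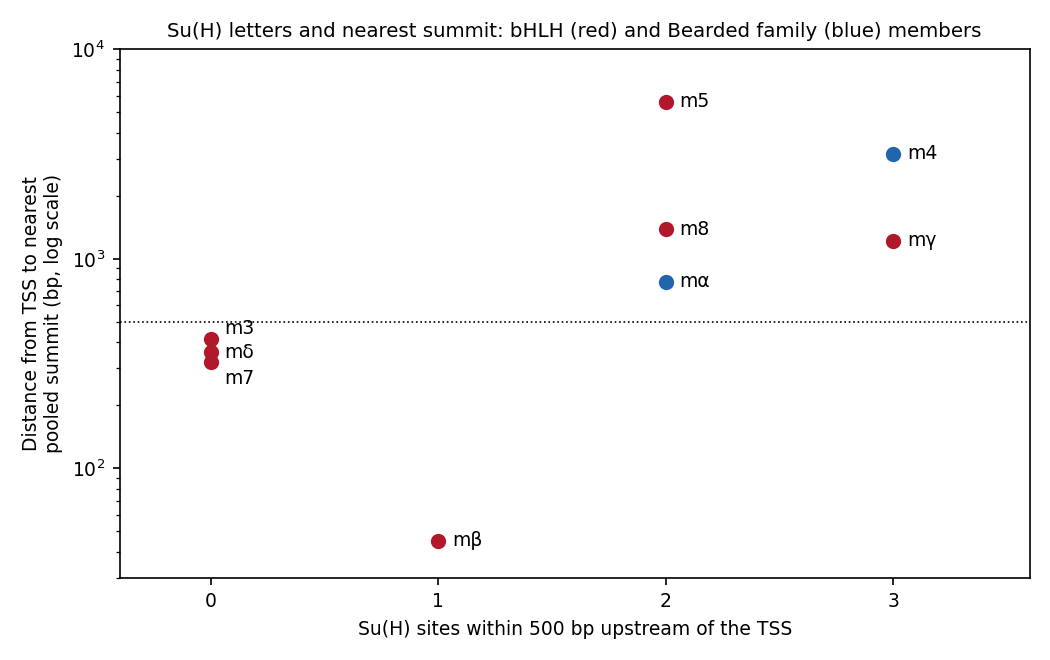
Number of Su(H) sites within 500 bp upstream of the TSS (x axis) and distance from the TSS to the nearest pooled summit (y axis, bp, log scale) for the 7 bHLH members (red) and the 2 Bearded family members (blue); the dotted line is 500 bp. The 4 members with 0 or 1 site lie below the line, between 45 and 416 bp, and the 5 with 2 or 3 sites lie above it, between 777 and 5631 bp.

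Around the 8 IDR summits of the run (100 bp on each side), 1 window held a Su(H) site, against 4.21% of all IDR windows, namely the one between lncRNA:CR43643 and lncRNA:CR43644. E boxes were in 4 of 8 against 60.3%, and the TATA box in 3 of 8 against 35.4%. The proneural E box (GCAGGTG or GCAGCTG) was in 1, at E(spl)m7-HLH, against 4.80%, the N box (CACNAG), known as a site of bHLH repressors, in 1 against 19.8%, and the Zelda site (CAGGTAG) in 1, at E(spl)m2-BFM, against 1.05%. A proneural E box is also counted as an E box. No window held the sites CACGTG (2.17% of all IDR windows) or CACGCG (4.68%), or the GAGA element GAGAGAG (4.96%). None held the DNA replication-related element TATCGATA (3.13%), the CA repeat CACACACA (4.94%) or the GATA site AGATAAG (3.55%). With 8 windows these counts describe the letters and no more.

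Related genes elsewhere are set beside the same background, the 23.3% of all protein-coding genes with an IDR promoter summit. The list shares of 16.7%, 22.2% and 27.3% given below lie near it. The Bearded complex on 3L, with BobA, Tom, Brd and Ocho in 30.5 kb, held no summit in any of the 5 lists, and 0 of these 4 genes had an IDR promoter summit. The achaete-scute complex on X, whose proneural genes are held down by Enhancer of split proteins, held no IDR or pooled summit in 93.1 kb and 1 summit each in replicates 2 and 3. Arm 3L averaged 4.14 IDR and 23.26 pooled summits per 100 kb, and arm X 4.12 and 22.06. Among 6 other genes of the bHLH-Orange family, to which the Enhancer of split repressors belong, 1 (16.7%) had an IDR promoter summit, the segmentation gene hry (rank 2749 at -10 bp). Of 9 proneural genes and partners, 2 (22.2%) had one, emc (rank 1965) and da (rank 4802), the latter encoding the bHLH partner of proneural proteins. Both are among the partners. The proneural genes of this list had no summit within 500 bp of a TSS in the pooled list or in any replicate list. Of 22 Notch pathway genes and regulators 6 had one (27.3%, against 23.3% of all protein-coding genes), with numb (rank 391), neur (rank 693) and mib1 (rank 3164) highest. Replicates were uneven at da, with best ranks within 500 bp of 4013, 17827 and 3740 in replicates 1, 2 and 3. At mib1 they were 1645, 3914 and 8752. The differences between these loci and the Enhancer of split complex were not tested.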

How the data were processed

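ChIP-seq peak lists of 3 replicates of 1 group were used. The authors deposited for each peak a signal value, a −log10 q-value and a summit offset; the deposited signal served only to rank peaks within 1 list, the −log10 q-value was not used. Per the deposited file records, each relaxed list came from 1 alignment, or the 3 together, against 1 control, on build dm6, and the IDR set from these lists. The labels and file headers name no peak caller and no IDR threshold. All 5724 IDR peaks were the pooled peaks of highest signal.

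Genes came from Ensembl 115 (BDGP6.54, with dm6 coordinates) on 6 arms, without transposable elements, and sequence from the RefSeq release 6 genome. A promoter summit was one at most 500 bp from the gene's TSS. A replicate supported a peak when its summit lay within 200 bp. Leaving out a replicate kept the IDR peaks supported by the leading 5724 of each of the others. Motifs were counted on both strands, within 100 bp of summits or 500 bp upstream of TSSs. No test was run, since there is 1 group and the members are neighbours. The functions were tested on simulated summits. The members and lists were chosen with earlier results of these data known. All members, the other genes of the run, and up to 3 leading genes per list are named. Of the list names, 2 (BobB and BobC) had no match. Python 3.11.15, numpy 2.4.6, pandas 2.3.3 and matplotlib 3.10.9 were used.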

Additional observations from a re-analysis of the deposited data

How the results depend on the processing

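The 2 members with a promoter summit, E(spl)m3-HLH and E(spl)m7-HLH, became 0 at 200 bp, since both summits lie farther upstream, 1 in the leading 2862 IDR peaks, since E(spl)m7-HLH ranked below it, and 4 in the pooled relaxed list. The count was 2 without replicate 1, 2 or 3, and 2 or 3 in each replicate's leading peaks. The 8 summits over the run became 3 in those leading peaks, 5 among peaks supported in all 3 replicates, and 5 to 7 with a replicate left out (7 without replicate 1, 5 without replicate 2 and 5 without replicate 3). Of all 5724 IDR peaks, 3630 (63.4%) were supported in all 3 replicates. Without replicates 1, 2 and 3 the whole set became 4088, 4197 and 4081. With 200 bp on each side, windows with a TATA box rose from 3 to 5 of 8 and those with an E box from 4 to 6. The count with a Su(H) site stayed at 1. Over all IDR windows the shares rose with width too. At 200 bp that of the TATA box went from 35.4% to 52.2%, and that of E boxes from 60.3% to 86.5%. Several motifs in 0 or 1 window shifted by 1 or 2 windows, for example the N box from 1 to 2 at 200 bp and to 0 at 50 bp, and CACGCG from 0 to 2 at 200 bp. Over all IDR windows the N box share was 10%, 19.8% and 38.1% at 50, 100 and 200 bp. That of CACGCG was 4.68% at 100 bp and 9.8% at 200 bp. The pooled ranks of E(spl)m3-HLH and E(spl)m7-HLH were the same at 1000 bp, and at 200 bp there was no value. Both peaks were kept without each replicate. Their rank could not change there, since the pooled list was not rebuilt. No paired analysis was possible because there is 1 group. Depth is unknown, so a member with no listed summit may still carry binding too weak for a list of 30000. In whole embryos, binding in few cells and weak binding in many cannot be told apart.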
